A study of Mus musculus with 8 samples.

Results

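The genes described here encode the enzymes, carriers and import factors of mitochondrial and peroxisomal fatty acid oxidation. They were named as a list of 38 mouse genes, and each measured gene was represented by its brightest bead-array probe among those detected above background on at least 2 of the 8 arrays. A probe was annotated for 36 of the 38 genes and 34 were measured, among 9803 genes tested in all. Hadha and Acad11 had no annotated probe, and the probes of Cpt1a and Phyh were detected on 0 arrays, with levels of 4.41 to 4.99 and 4.34 to 4.66.

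Total RNA from adipose tissue of obese C57Bl6 mice on a high-fat diet was hybridised to Illumina bead arrays after a fast of 5 h. The tissue came from sgp130Fc transgenic mice aged 26 weeks (sgp130Fc, n = 3 arrays), IL6 knock-out mice aged 25 weeks (IL6 KO, n = 3) and wild-type mice aged 24 weeks (Wild Type, n = 2). sgp130Fc is a decoy made of soluble gp130 and an Fc domain. It binds the complex of IL-6 with its soluble receptor and so blocks trans-signalling, whereas the knock-out lacks IL-6 altogether. The comparisons therefore set loss of trans-signalling and loss of the whole cytokine against Wild Type and against each other. Each group has its own age, so age and genotype cannot be told apart. The labels do not name the promoter of the transgene, the deleted part of Il6, the fat depot or the sex. Nothing in them says that numbered replicates are different animals, and the p-values then measure only the spread among these arrays, which may be technical.

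Long-chain fatty acids enter mitochondria as carnitine esters and are then shortened in a repeating cycle of dehydrogenation, hydration, a further dehydrogenation and thiolysis. Each turn releases acetyl-CoA and hands electrons to the respiratory chain. Peroxisomes shorten very long, branched and dicarboxylic acids with their own enzymes and pass the products on. White adipocytes mainly store fat, and many oxidation genes in fat are targets of the PPAR family of nuclear receptors, which bind DNA with RXR at direct repeats of AGGTCA.

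Promoters of the members were read for the sites of that family, because the members are often treated as 1 PPAR-controlled set. RefSeq promoter windows of GRCm38.p6, 250 bases before to 50 after the start, matched 31 of the 38 genes, 27 of them measured. The full repeat AGGTCANAGGTCA was in 0 of the 31 (0.0396% of 32851 mouse promoters held it on either strand). A single AGGTCA was in 6 of 31 (16.3% of all promoters), namely Acadm, Acadvl, Echs1, Scp2 and the undetected Cpt1a and Phyh. The GC box GGGCGG was in 24 of 31 (35.7% of all promoters) and the CCAAT box CCAAT in 13 of 31 (37.4%). Both strands were searched, and a full repeat holds AGGTCA within it. A match describes letters in this window only. The 60 bases around AGGTCA are shown for the 4 measured genes that hold it, with its letters on either strand in capitals. They lie at chr3:153944834-153944893 for Acadm, chr11:70015483-70015542 for Acadvl, chr7:140116472-140116531 for Echs1 and chr4:108118624-108118683 for Scp2, all on the minus strand and printed in the direction of the gene.
Acadm: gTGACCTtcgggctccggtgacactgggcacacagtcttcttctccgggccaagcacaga
Acadvl: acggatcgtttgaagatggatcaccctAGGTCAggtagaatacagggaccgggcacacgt
Echs1: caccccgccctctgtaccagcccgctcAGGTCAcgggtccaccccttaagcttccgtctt
Scp2: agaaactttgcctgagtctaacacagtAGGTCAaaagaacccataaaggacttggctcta

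The first base of the match stood at -249 in Acadm, -87 in Acadvl, -83 in Echs1 and -109 in Scp2, counted from the start. In Acadm it ran on the opposite strand to the gene.

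Acot1 and Acot2 are shown as well, because these neighbouring thioesterase genes differed in their values, and Hadhb because it had the smallest p between sgp130Fc and IL6 KO. The 250 bases before each start are printed with GC and CCAAT boxes of either strand in capitals. They lie at chr12:84009252-84009501 for Acot1, chr12:83987611-83987860 for Acot2 and chr5:30155003-30155252 for Hadhb, all on the plus strand.
Acot1: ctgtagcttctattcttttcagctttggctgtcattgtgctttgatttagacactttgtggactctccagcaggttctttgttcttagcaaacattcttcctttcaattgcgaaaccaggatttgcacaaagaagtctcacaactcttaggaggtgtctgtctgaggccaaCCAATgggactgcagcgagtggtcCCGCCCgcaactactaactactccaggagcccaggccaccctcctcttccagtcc
Acot2: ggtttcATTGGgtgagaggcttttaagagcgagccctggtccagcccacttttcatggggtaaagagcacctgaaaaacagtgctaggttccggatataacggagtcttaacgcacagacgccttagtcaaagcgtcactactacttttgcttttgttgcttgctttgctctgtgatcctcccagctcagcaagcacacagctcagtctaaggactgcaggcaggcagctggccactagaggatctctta
Hadhb: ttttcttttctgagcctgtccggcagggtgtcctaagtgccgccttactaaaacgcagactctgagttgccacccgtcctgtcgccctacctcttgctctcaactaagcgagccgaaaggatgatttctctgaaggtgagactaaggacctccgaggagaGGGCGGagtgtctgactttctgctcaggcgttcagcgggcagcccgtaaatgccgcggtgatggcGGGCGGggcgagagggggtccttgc

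The starts of Acot1 and Acot2 lie 21641 bases apart, and their upstream windows were identical at 148 of 295 columns of a global alignment (50.2%). Hadhb and Hadha, which encode the subunits of the mitochondrial trifunctional protein, start 273 bases apart in opposite directions.

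Across the series, median probe intensity lay between 109.1 and 145 per array, and 48.6% to 52.1% of 25697 probes were above background. IL6 KO replicate 2 stood apart, with a mean correlation across probes of 0.944 with the other arrays against 0.964 to 0.973 for the rest. Il6 itself (probe ILMN_1243601) lay at 4.78, 4.62 and 4.46 on the sgp130Fc arrays, at 5.17, 5.07 and 5.16 on the IL6 KO arrays, and at 4.40 and 4.47 on the Wild Type arrays, as normalized log2 intensity. It was detected on 2 arrays, both IL6 KO, and where it lies relative to the deletion was not determined, which leaves the genotype unchecked. The label of adipose tissue could be checked: the adipokine gene Adipoq was detected on all 8 arrays at 12.15 to 13.63. The probe of Fabp4, another adipocyte marker, was detected on 2 arrays. Of 7 brown fat markers, Ucp1, Elovl3 and Dio2 were each detected on 0 arrays, Cidea and Kcnk3 on 7, and Cox7a1 and Cox8b on 8. All levels below are normalized log2 intensities, and a level serves to compare arrays, and across probes only to pick the brightest one of a gene or of a role. In bulk tissue, fewer cells of a type and less RNA per cell cannot be told apart.

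In IL6 KO fat, 30 of the 34 measured members lay lower than in Wild Type fat, against 50.2% of all genes tested. None passed: limma called 0 members at an adjusted p under 0.05, where it called 0.194% of genes lower and 0.102% higher (35 of 14141 probes, 0.248%). The median log2 difference of the members was -0.44, against -0.0026 over all genes, and single members ranged from -0.82 to 1.28. At an unadjusted p under 0.05 there were 11 lower members (11.4% of all genes) and 2 higher (9.93%). The arrays of the groups did not overlap for 21 lower members (21.2% of all genes) and for 2 higher ones (18.9%), Acox3 and Acot1. The 4 members with a positive difference were these and Acadl and Acad10.

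One array carried the lowest value for most members. Of 34 members, 26 had their lowest level of the 8 arrays on IL6 KO replicate 2, where 23.7% of all genes had theirs. Without that array the median was -0.25, 29 members lay lower and 0 were called. On the other arrays of this group the median member stood at -0.31 (replicate 1) and -0.17 (replicate 3) from the Wild Type mean, against -0.75 on replicate 2.

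**Figure D1:**
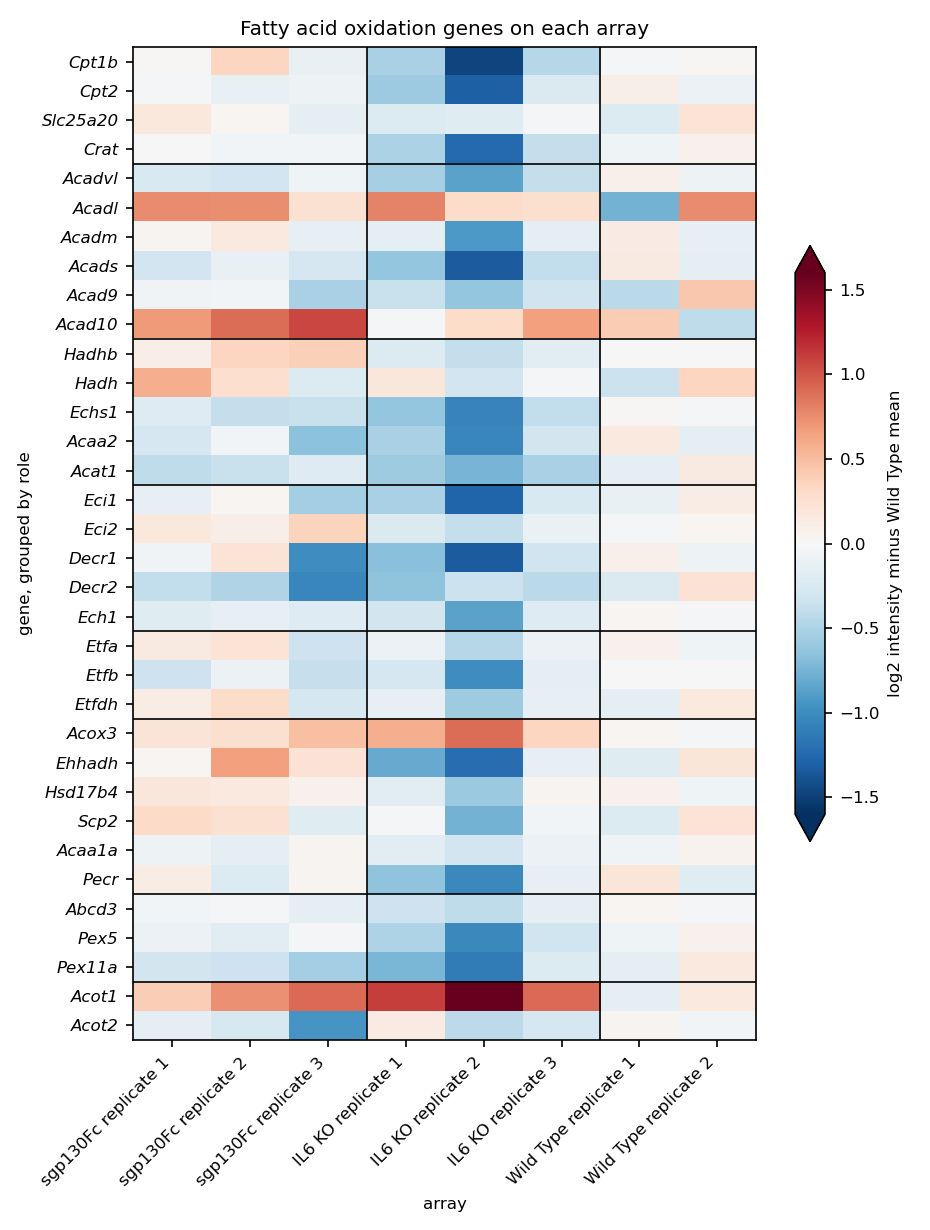
Colour gives the normalized log2 intensity of each of the 34 measured members, grouped by role down the page, minus its Wild Type mean, on each of the 8 arrays. Blue fills most of the IL6 KO columns and is deepest on IL6 KO replicate 2, which held the lowest level of 26 members, while Acot1 and Acox3 are red in all 3 of them.

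In sgp130Fc fat, the members lay on both sides of Wild Type, 19 lower and 15 higher (50.8% of all genes lower), with a median log2 difference of -0.05 against -0.0053 over all genes. Single members ranged from -0.64 to 0.88. limma called 0 members, against 0.051% of genes lower and 0.0612% higher (13 probes, 0.0919%), and the smallest adjusted p was 0.456, for Acad10. At an unadjusted p under 0.05 there was 1 lower member, Decr2 (4.03% of all genes), and 2 higher, Acad10 and Acot1 (4.53%). Groups did not overlap for 7 lower members (15.8% of all genes), which were Echs1, Acat1, Decr2, Ech1, Etfb, Pex11a and Acot2, and 5 higher ones (13.8%), which were Acad10, Hadhb, Eci2, Acox3 and Acot1. The 95% interval of a member's difference from Wild Type reached, in the median, 0.57 to either side, so smaller differences are hardly resolved with these arrays. Larger ones can also miss the adjusted threshold, as Acad10 did at 0.88.

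Between sgp130Fc and IL6 KO fat, 30 of 34 members lay higher in sgp130Fc (50.2% of all genes), with a median log2 difference of 0.35 against 0.0013 over all genes. The exceptions were Decr2, Acox3, Acot1 and Acot2. Again 0 members were called, where limma called 0.959% of genes higher and 0.49% lower (179 probes, 1.27%). At an unadjusted p under 0.05 there were 11 higher members (9.97% of all genes) and 1 lower, Acot1 (8.46%). Groups did not overlap for 15 higher members (14% of all genes) and 1 lower one (13%). Without IL6 KO replicate 2 the median was 0.17 and 0 were called. Both comparisons with Wild Type use the same 2 Wild Type arrays, and this one uses the same IL6 KO arrays as the first, so the counts are not independent of each other.

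**Figure D2:**
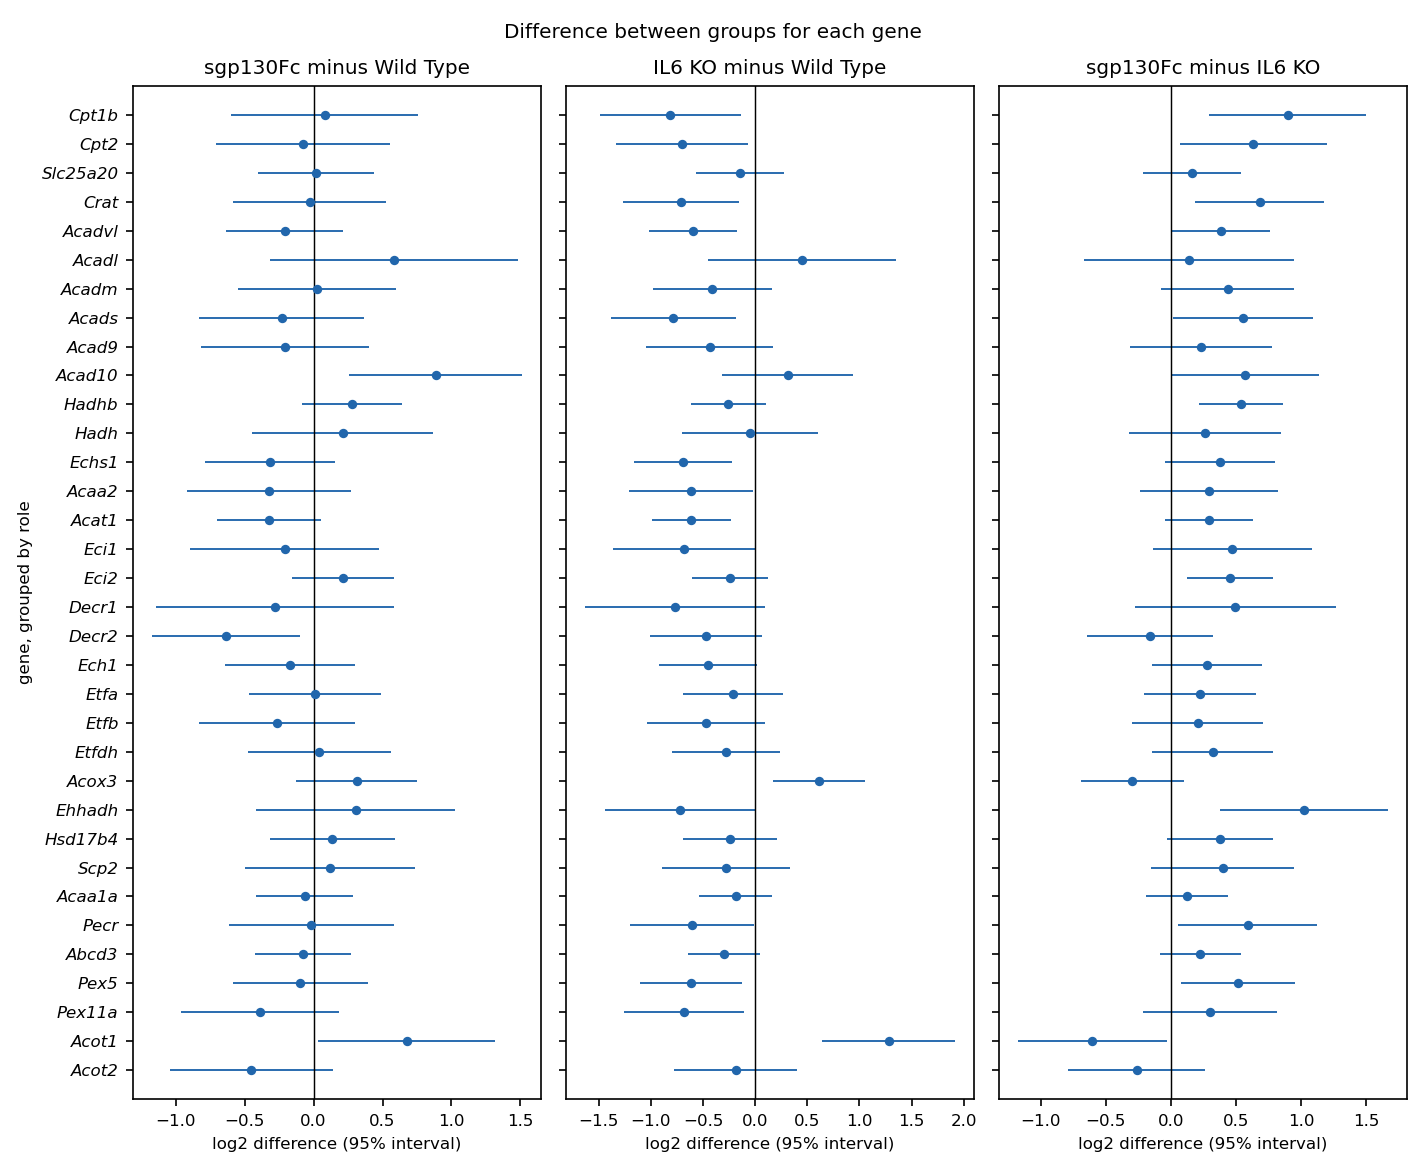
Points give the log2 difference of each measured member in the 3 comparisons, with genes grouped by role down the page, and bars give the 95% interval from limma. Most IL6 KO differences from Wild Type lie left of 0, with Acot1 at 1.28 far to the right, while the sgp130Fc differences from Wild Type straddle 0.

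The carnitine shuttle moves acyl groups through the mitochondrial membranes, and 4 of its 5 genes were measured. All 4 lay lower in IL6 KO than in Wild Type (median -0.71), and the groups did not overlap for 3 of them (21.2% of all genes). Cpt1b, the outer-membrane carnitine palmitoyltransferase best known from muscle, lay at 7.16, 7.49 and 7.04 on the sgp130Fc arrays, at 6.64, 5.68 and 6.69 on the IL6 KO arrays, and at 7.13 and 7.17 on the Wild Type arrays. Every IL6 KO array lay below all the others, and replicate 2 lay almost 1 unit below its own group. The log2 difference of Cpt1b from Wild Type was -0.82 ± 0.30 (SE) in IL6 KO (adjusted p = 0.181) and 0.08 ± 0.30 in sgp130Fc, and sgp130Fc exceeded IL6 KO by 0.90 ± 0.27 (adjusted p = 0.146). Without IL6 KO replicate 2 the difference from Wild Type was -0.49 in IL6 KO, and sgp130Fc exceeded IL6 KO by 0.57. A second probe of Cpt1b, dim and detected on 6 arrays, differed by -0.07 between IL6 KO and Wild Type. Between sgp130Fc and IL6 KO it differed by 0.11.

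Crat, carnitine acetyltransferase, which buffers acetyl-CoA by making acetylcarnitine, lay at 9.33, 9.29 and 9.29 in sgp130Fc, at 8.82, 8.09 and 8.95 in IL6 KO, and at 9.26 and 9.40 in Wild Type. The sgp130Fc and Wild Type arrays overlapped, and the IL6 KO arrays lay apart below both. Its difference from Wild Type was -0.71 ± 0.25 (SE) in IL6 KO (adjusted p = 0.165) and -0.03 in sgp130Fc, with a 95% interval of -0.58 to 0.53. The IL6 KO value was -0.45 without replicate 2 of that group. The other 2 probes of Crat gave -0.26 and -0.04 in IL6 KO, with overlapping groups, so its probes differ in size. These 2 probes were dim, detected on 3 and 5 arrays. Cpt2, the inner-membrane transferase, differed by -0.70 in IL6 KO and -0.07 in sgp130Fc. Slc25a20, the carnitine-acylcarnitine carrier and the brightest probe of the shuttle, lay at 10.88, 10.74 and 10.57 in sgp130Fc, at 10.50, 10.51 and 10.70 in IL6 KO, and at 10.50 and 10.93 in Wild Type. Its groups overlapped in every comparison.

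**Figure D3:**
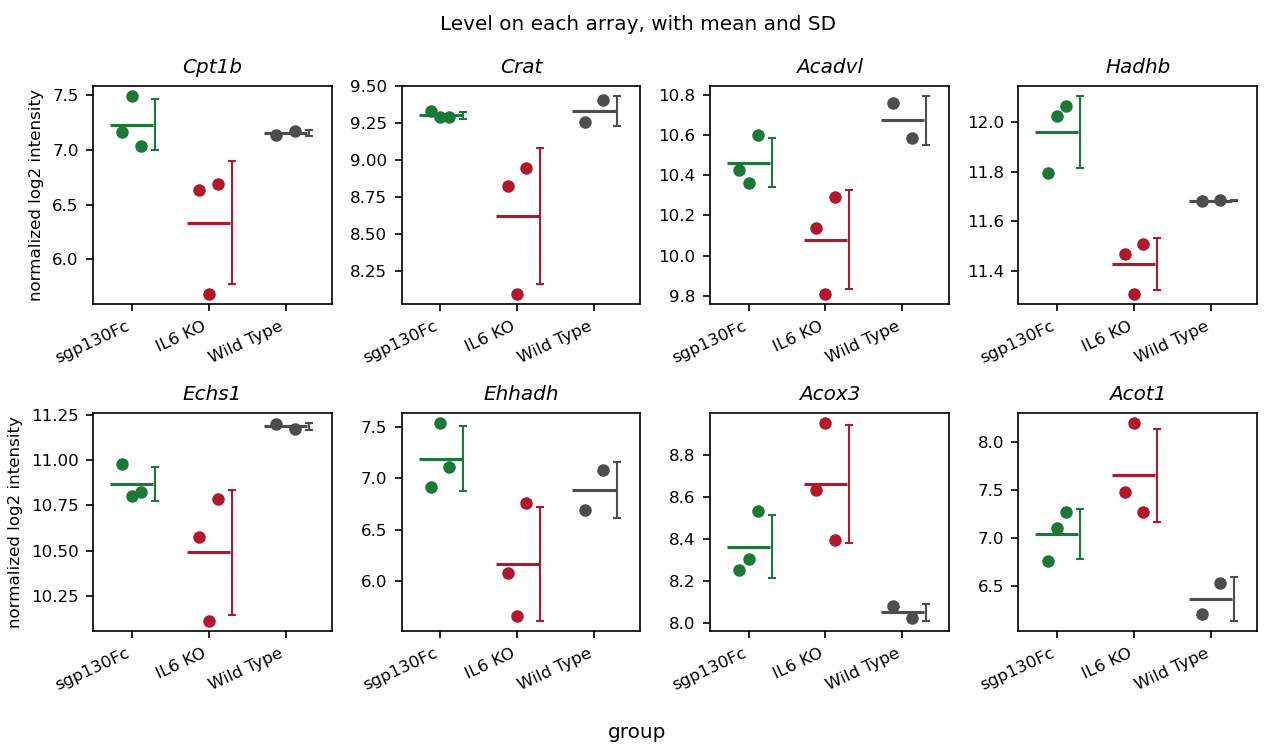
Normalized log2 intensity of 8 members in the sgp130Fc, IL6 KO and Wild Type arrays, with points for arrays, a horizontal line for the group mean and a bar for the SD (n = 3, 3 and 2), each panel on its own axis that does not start at 0. Cpt1b, Hadhb and Ehhadh have sgp130Fc means above Wild Type and IL6 KO means below it, Crat differs from Wild Type by -0.03 in sgp130Fc and -0.71 in IL6 KO, Echs1 and Acadvl lie below Wild Type in both groups, and Acox3 and Acot1 lie above it in both.

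The acyl-CoA dehydrogenases carry out the first oxidation of the cycle, each for a range of chain lengths. Of 6 measured, 4 lay lower in IL6 KO than in Wild Type (median -0.42) and all 6 lay higher in sgp130Fc than in IL6 KO (median 0.41). Acadvl, for very long chains, lay at 10.43, 10.36 and 10.60 in sgp130Fc, at 10.14, 9.81 and 10.29 in IL6 KO, and at 10.76 and 10.59 in Wild Type. IL6 KO arrays were all below the rest, and sgp130Fc overlapped with Wild Type. The difference from Wild Type was -0.59 ± 0.19 (SE) in IL6 KO (adjusted p = 0.147), or 1.51-fold lower, and -0.21 ± 0.19 in sgp130Fc (adjusted p = 0.81).

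Acads, for short chains, lay at 9.42, 9.62 and 9.46 in sgp130Fc, at 9.11, 8.40 and 9.33 in IL6 KO, and at 9.88 and 9.58 in Wild Type. No IL6 KO array reached any array of the other groups, and the difference from Wild Type was -0.78 ± 0.26 (adjusted p = 0.159), or -0.51 without IL6 KO replicate 2. Acadm, for medium chains and the brightest probe of this role, lay at 12.69, 12.79 and 12.51 in sgp130Fc, at 12.48, 11.71 and 12.48 in IL6 KO, and at 12.77 and 12.50 in Wild Type. Apart from IL6 KO replicate 2 these arrays lay within a narrow span, and the IL6 KO difference from Wild Type was -0.41 with all arrays and -0.16 without that replicate. A second probe of Acadm gave -0.11 with all arrays, and its groups overlapped.

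Acad10, a less studied member of the family, ran otherwise. It lay at 6.24, 6.45 and 6.62 in sgp130Fc, at 5.54, 5.84 and 6.21 in IL6 KO, and at 5.95 and 5.15 in Wild Type. All sgp130Fc arrays were above all others, by 0.88 ± 0.28 (SE) over Wild Type (adjusted p = 0.456) and by 0.57 ± 0.25 over IL6 KO (adjusted p = 0.276). The Wild Type arrays differed from each other by about as much, and the IL6 KO difference from Wild Type of 0.31 became -0.09 without Wild Type replicate 2. Acadl, for long chains, had Wild Type arrays at 7.05 and 8.57, wider than the span of both other groups. Its 3 probes disagreed in sign between IL6 KO and Wild Type (0.45, -0.16 and -0.18), and the last of these was detected on 2 arrays. Acad9, which also assists assembly of respiratory complex I, differed from Wild Type by -0.21 in sgp130Fc and -0.44 in IL6 KO, with overlapping arrays.

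Hydration, the second oxidation and thiolysis complete the mitochondrial cycle. All 5 measured genes of these steps lay lower in IL6 KO than in Wild Type (median -0.61), with groups apart for 4 (21.2% of all genes). In sgp130Fc the same 5 genes divided, 3 lower and 2 higher than Wild Type (median -0.32). Echs1, the short-chain enoyl-CoA hydratase, lay at 10.98, 10.80 and 10.83 in sgp130Fc, at 10.57, 10.11 and 10.79 in IL6 KO, and at 11.20 and 11.17 in Wild Type. The 3 groups did not overlap, with sgp130Fc between the others. Its difference from Wild Type was -0.32 ± 0.21 (SE) in sgp130Fc (adjusted p = 0.743) and -0.70 ± 0.21 in IL6 KO (adjusted p = 0.135).

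Acat1, the mitochondrial acetoacetyl-CoA thiolase, which also serves ketone body and isoleucine breakdown, had the same order. Its levels were 5.60, 5.65 and 5.80 in sgp130Fc, 5.43, 5.26 and 5.49 in IL6 KO, and 5.87 and 6.15 in Wild Type. Every sgp130Fc array lay below both Wild Type arrays and above every IL6 KO array. The differences from Wild Type were -0.32 ± 0.17 (SE) in sgp130Fc (adjusted p = 0.683) and -0.61 ± 0.17 in IL6 KO (adjusted p = 0.115).

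Hadhb, the thiolase subunit of the trifunctional protein, took another order. It lay at 11.79, 12.02 and 12.07 in sgp130Fc, at 11.47, 11.31 and 11.51 in IL6 KO, and at 11.68 and 11.69 in Wild Type. Again the 3 groups did not overlap, but sgp130Fc lay highest and Wild Type between. sgp130Fc exceeded IL6 KO by 0.53 ± 0.14 (SE), 1.45-fold, with the smallest adjusted p of the members in that comparison (0.116), and its difference from Wild Type was 0.28 ± 0.16 (adjusted p = 0.704). With quantile normalization without background correction the difference between sgp130Fc and IL6 KO was 0.52 and passed (adjusted p = 0.0444). Hadhb lies 5 protein-coding gene places from Il6 on chromosome 5, where Acox3 (102 places), Acads (611) and Acad10 (689) also lie.

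Acaa2, the mitochondrial 3-ketoacyl-CoA thiolase, differed from Wild Type by -0.32 in sgp130Fc and -0.62 in IL6 KO on its brightest probe, while its 3 other probes lay between -0.29 and -0.06 in IL6 KO. Hadh, the 3-hydroxyacyl-CoA dehydrogenase for shorter chains, differed by 0.21 in sgp130Fc and -0.05 in IL6 KO, with Wild Type arrays at 6.46 and 7.16.

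Auxiliary enzymes rearrange the double bonds of unsaturated fatty acids so that the cycle can go on. All 5 lay lower in IL6 KO than in Wild Type and the groups were apart for all 5 (21.2% of all genes), with a median of -0.47 and 0 members at an unadjusted p under 0.05. Eci2, an enoyl-CoA isomerase of mitochondria and peroxisomes, lay at 9.98, 9.93 and 10.17 in sgp130Fc, at 9.58, 9.43 and 9.71 in IL6 KO, and at 9.79 and 9.84 in Wild Type. As for Hadhb, the groups did not overlap and sgp130Fc lay highest. Its log2 difference between sgp130Fc and IL6 KO was 0.45 ± 0.14 (SE, adjusted p = 0.166), and that from Wild Type was 0.21 in sgp130Fc and -0.24 in IL6 KO.

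Decr2, the peroxisomal dienoyl-CoA reductase, was dim and detected on 7 arrays. Its levels were 5.44, 5.36 and 4.80 in sgp130Fc, 5.19, 5.49 and 5.40 in IL6 KO, and 5.61 and 6.06 in Wild Type. Both groups lay below Wild Type, with differences of -0.64 ± 0.24 (SE) in sgp130Fc (adjusted p = 0.545) and -0.47 ± 0.24 in IL6 KO (adjusted p = 0.291). Its second probe gave 0.09 in sgp130Fc and 0.10 in IL6 KO, with overlapping groups. That probe was detected on 3 arrays, 0 of them Wild Type, so its opposite sign rests on levels near background.

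Ech1, the dienoyl-CoA isomerase, lay at 12.68, 12.74 and 12.67 in sgp130Fc, at 12.57, 12.01 and 12.67 in IL6 KO, and at 12.90 and 12.84 in Wild Type. Both groups lay below Wild Type on every array, with differences of -0.17 in sgp130Fc and -0.45 in IL6 KO (-0.25 without IL6 KO replicate 2). Eci1, the mitochondrial isomerase, differed by -0.21 in sgp130Fc and -0.68 in IL6 KO. Decr1, the mitochondrial reductase, varied widely within groups: one sgp130Fc array lay at 7.89 and the others at 8.83 and 9.09, and its IL6 KO difference of -0.77 had an interval of -1.63 to 0.09.

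Electron transfer flavoprotein passes electrons from the dehydrogenases to the respiratory chain. On their brightest probes, all 3 of its genes lay lower in IL6 KO than in Wild Type (median -0.28), with groups apart for Etfa and Etfb (21.2% of all genes). These groups overlapped on the other probes of Etfa (-0.23, -0.14 and -0.04) and Etfb (-0.35). On the second probe of Etfdh (-0.35) they were apart. Etfa, the alpha subunit, lay at 12.74, 12.82 and 12.27 in sgp130Fc, at 12.51, 12.15 and 12.51 in IL6 KO, and at 12.67 and 12.53 in Wild Type. The IL6 KO arrays lay below Wild Type by a small margin, and the difference of -0.21 had an interval of -0.69 to 0.26 and was -0.10 without replicate 2. Etfb, the beta subunit, differed by -0.27 in sgp130Fc and -0.47 in IL6 KO. Etfdh, the ubiquinone oxidoreductase that receives the electrons, differed by 0.04 in sgp130Fc and -0.28 in IL6 KO. On these probes, the brightest of each gene, none had an unadjusted p under 0.05 in any comparison. Of the other 3 probes of Etfa, 2 lay higher in sgp130Fc than in IL6 KO with groups apart, by 0.44 (unadjusted p = 0.0475, adjusted p = 0.277 from limma) and 0.42 (0.0447 and 0.271), and the third differed by 0.26 with overlapping groups.

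In peroxisomes, acyl-CoA oxidases take the first step and the bifunctional enzymes and thiolases the next ones. Of 6 measured genes, 5 lay lower in IL6 KO than in Wild Type (median -0.26), and 4 lay higher in sgp130Fc than in Wild Type (median 0.13). Ehhadh, the L-bifunctional enzyme, which handles long-chain dicarboxylic acids, lay at 6.92, 7.54 and 7.11 in sgp130Fc, at 6.08, 5.66 and 6.76 in IL6 KO, and at 6.69 and 7.08 in Wild Type. sgp130Fc and IL6 KO arrays did not overlap, whereas each overlapped with Wild Type. sgp130Fc exceeded IL6 KO by 1.03 ± 0.29 (SE), 2.04-fold, with an adjusted p of 0.127, the largest positive difference of any member in that comparison. Without IL6 KO replicate 2 it was 0.77 (adjusted p = 0.265), and without IL6 KO replicate 3 it was 1.32 and passed (adjusted p = 0.0316), where 3.59% of all probes were called.

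Acox3, an oxidase for branched-chain acyl-CoA, ran against the other peroxisomal enzymes in IL6 KO. It lay at 8.25, 8.31 and 8.53 in sgp130Fc, at 8.63, 8.95 and 8.40 in IL6 KO, and at 8.08 and 8.02 in Wild Type. Every array of both groups lay above Wild Type, by 0.31 ± 0.20 (SE) in sgp130Fc (adjusted p = 0.728) and by 0.61 ± 0.20 in IL6 KO (adjusted p = 0.149). Its highest level was on IL6 KO replicate 2, the array on which most members were lowest. Without that array the IL6 KO difference was 0.46. The other probes of Acox3 were detected on 0 and 1 arrays and were not tested.

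The other measured peroxisomal enzymes were Hsd17b4, Scp2, Acaa1a and Pecr. Hsd17b4, the D-bifunctional enzyme and the brightest of this role, lay at 12.29, 12.25 and 12.17 in sgp130Fc, at 11.93, 11.51 and 12.14 in IL6 KO, and at 12.17 and 12.03 in Wild Type. sgp130Fc lay above every IL6 KO array, by 0.38 ± 0.18 (SE, adjusted p = 0.311), or by 0.21 without IL6 KO replicate 2 (adjusted p = 0.658). Scp2, which encodes a thiolase and a sterol carrier from 1 gene, differed from Wild Type by 0.12 in sgp130Fc and -0.28 in IL6 KO. Acaa1a, the peroxisomal thiolase, differed by -0.07 and -0.19 in the same groups, and its near-identical copy Acaa1b may share its probe. Pecr, the peroxisomal trans-2-enoyl-CoA reductase, differed by -0.02 in sgp130Fc and by -0.60 in IL6 KO (adjusted p = 0.239), with overlapping arrays.

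Import and division of peroxisomes were represented by 3 genes, all lower in IL6 KO than in Wild Type on every array (median -0.61, with groups apart downwards for 21.2% of all genes). Pex5, the receptor that carries matrix enzymes into peroxisomes, lay at 9.07, 8.99 and 9.15 in sgp130Fc, at 8.68, 8.14 and 8.84 in IL6 KO, and at 9.10 and 9.23 in Wild Type. IL6 KO lay apart below, with a difference of -0.61 ± 0.22 (SE) from Wild Type (adjusted p = 0.17), or -0.41 without replicate 2, and sgp130Fc overlapped with Wild Type. Its other 2 probes gave -0.67 and -0.55, also with groups apart.

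Pex11a, which promotes peroxisome division and is a known PPAR-alpha target, lay at 9.55, 9.51 and 9.30 in sgp130Fc, at 9.12, 8.73 and 9.63 in IL6 KO, and at 9.69 and 9.99 in Wild Type. Both groups lay below Wild Type on every array, with differences of -0.39 ± 0.25 (SE) in sgp130Fc (adjusted p = 0.742) and -0.69 ± 0.25 in IL6 KO (adjusted p = 0.185). Its other probes gave -0.75 and -1.03 in IL6 KO. Leaving out IL6 KO replicate 3, the highest of its group, took the difference to -0.92, which passed (adjusted p = 0.0464). In that setting 787 probes were called (5.66%), against 35 with all arrays, and without IL6 KO replicate 2 the difference was -0.47 (adjusted p = 0.373). Abcd3, the transporter of branched and dicarboxylic acyl-CoA into peroxisomes, lay at 10.64, 10.65 and 10.54 in sgp130Fc, at 10.35, 10.28 and 10.53 in IL6 KO, and at 10.72 and 10.65 in Wild Type. The IL6 KO arrays were the lowest, with a difference of -0.30 ± 0.15 from Wild Type (adjusted p = 0.304).

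Acyl-CoA thioesterases release free fatty acids from CoA, Acot1 in the cytosol and Acot2 in mitochondria. A second probe of Acot1 was detected on 0 arrays. The tested one lay at 6.76, 7.11 and 7.27 in sgp130Fc, at 7.48, 8.19 and 7.27 in IL6 KO, and at 6.21 and 6.53 in Wild Type. Every array of both groups lay above Wild Type, and every IL6 KO array lay above every sgp130Fc array, although the nearest pair were equal to 2 decimals. The IL6 KO difference from Wild Type was 1.28 ± 0.28 (SE), 2.43-fold, with a 95% interval of 0.64 to 1.92 and the smallest adjusted p of the members (0.0892). It was 1.00 without IL6 KO replicate 2 and 1.47 without IL6 KO replicate 3, where it passed (adjusted p = 0.0344) among 5.66% of all probes. In sgp130Fc the difference from Wild Type was 0.68 ± 0.28 (adjusted p = 0.587), and sgp130Fc differed from IL6 KO by -0.60 ± 0.25 (adjusted p = 0.262), or by -0.33 without IL6 KO replicate 2 (adjusted p = 0.571).

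Acot2, whose promoter stands upstream of Acot1 on the same strand, was dim and detected on 6 arrays. It lay at 5.26, 5.17 and 4.48 in sgp130Fc, at 5.55, 5.00 and 5.15 in IL6 KO, and at 5.46 and 5.38 in Wild Type. Its IL6 KO arrays straddled Wild Type (-0.19, interval -0.78 to 0.41, and -0.07 without replicate 2), and its sgp130Fc arrays lay below (-0.45, interval -1.04 to 0.14). The coding sequences of the Acot1 family are near-identical, so how far each probe separates the copies is uncertain.

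Of the 34 measured members, 17 had more than 1 tested probe. All probes of a gene had the same sign for 13 of these genes between IL6 KO and Wild Type, for 13 between sgp130Fc and Wild Type, and for 16 between sgp130Fc and IL6 KO. These counts include probes near background, such as the second probes of Decr2 and Acot2, each detected on 3 arrays.

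Related genes were counted in 7 further lists. Over the 92 measured genes of these lists, limma called 1 in any comparison, the PPAR target Pdk4. It was called higher in sgp130Fc than in IL6 KO, where 0.959% of all genes were, so the count is near that share. The kinase it encodes shuts pyruvate dehydrogenase and so spares glucose when fat is burned. Pdk4 lay at 10.75, 11.39 and 11.11 in sgp130Fc, at 9.01, 7.73 and 8.83 in IL6 KO, and at 9.08 and 9.60 in Wild Type. Every sgp130Fc array lay above all others. It rose in sgp130Fc relative to IL6 KO by 2.56 ± 0.33 (SE), 5.90-fold (adjusted p = 0.0114), and its difference from Wild Type was 1.74 ± 0.37 in sgp130Fc (adjusted p = 0.25) and -0.81 ± 0.37 in IL6 KO (adjusted p = 0.256). Without sgp130Fc replicate 2 or 3 the adjusted p against IL6 KO was 0.0716 and 0.0798. The other 9 measured PPAR targets were not called, and the median of the 10 was 0.22 in sgp130Fc and -0.22 in IL6 KO, each against Wild Type. Among them, Fabp4 was detected on 2 arrays, both sgp130Fc, so it was counted as measured only through that group.

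All 12 measured citric acid cycle genes lay lower in IL6 KO than in Wild Type (median -0.38), against 50.2% of all genes. All 12 lay higher in sgp130Fc than in IL6 KO (median 0.30), against 50.2% of all genes. limma called 0 of them, where 0.194% of all genes were called lower in the first comparison and 0.959% higher in the second. Cs, citrate synthase, differed from Wild Type by -0.10 in sgp130Fc and by -0.50 in IL6 KO. In the list of transcriptional regulators, 7 of 12 measured genes lay lower in IL6 KO than in Wild Type (median -0.15). Pparg, the master regulator of adipocytes, lay at 11.13, 11.08 and 10.93 in sgp130Fc, at 10.28, 9.68 and 10.73 in IL6 KO, and at 11.50 and 11.10 in Wild Type. The IL6 KO arrays were all below the rest, with a difference of -1.07 ± 0.28 (SE) from Wild Type (adjusted p = 0.115). Lpin1, a PPAR coactivator and phosphatidate phosphatase, exceeded IL6 KO by 1.13 in sgp130Fc (adjusted p = 0.12). Tfam, which maintains mitochondrial DNA, lay 0.40 above Wild Type in IL6 KO (adjusted p = 0.228).

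Among genes of fatty acid activation and malonyl-CoA, 5 of 10 lay lower in IL6 KO than in Wild Type. Acaca, which encodes an enzyme that makes malonyl-CoA, differed from Wild Type by -0.21 in sgp130Fc and by -1.07 in IL6 KO (adjusted p = 0.103). Of 28 other peroxisomal genes, 20 lay lower in IL6 KO than in Wild Type (median -0.35), with the membrane channel gene Pxmp2 at -0.93. limma called 0 of the 28, where it called 0.194% of all genes lower and 0.102% higher in that comparison. Of 13 other mitochondrial acyl-CoA and ketone enzymes, 9 lay lower in IL6 KO (median -0.24), among them Pccb of propionate breakdown (-0.99) and Ivd of leucine breakdown (-0.94). The 7 import and chaperone genes of mitochondria had a median of -0.11.

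**Figure D4:**
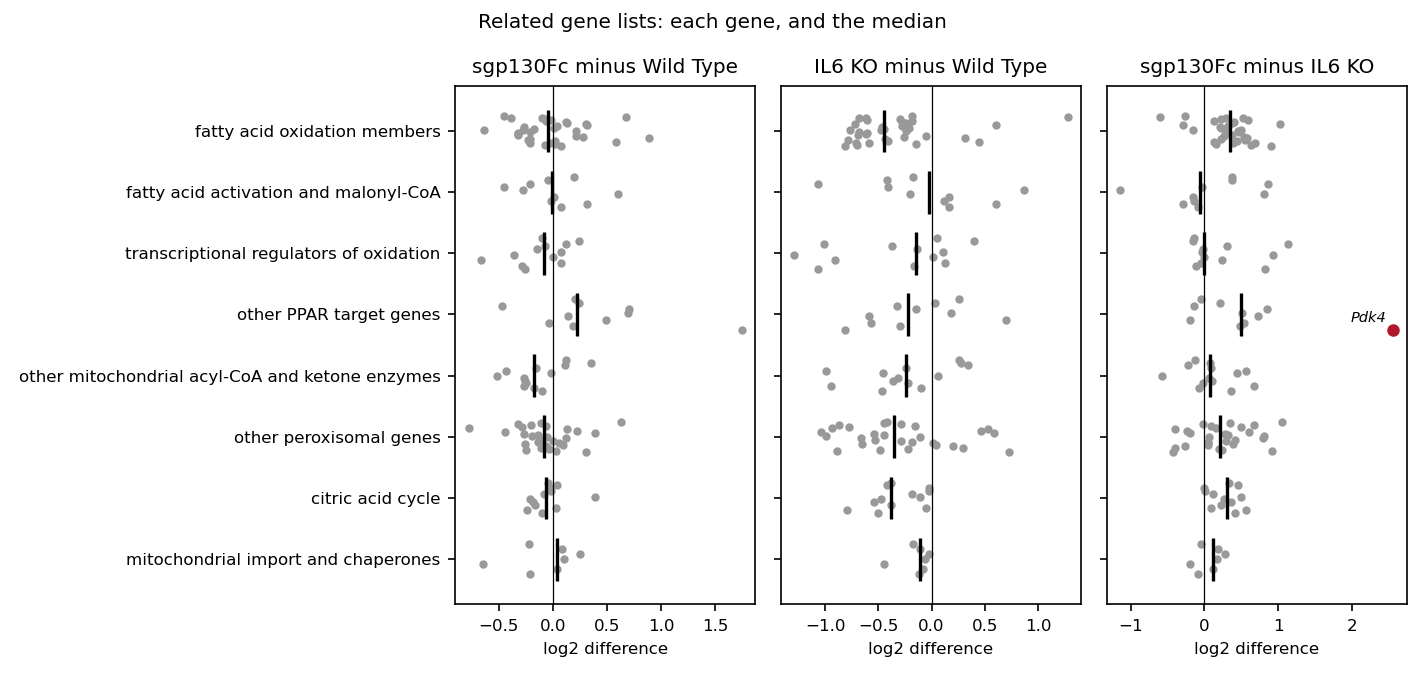
Each point is the log2 difference of 1 measured gene in sgp130Fc minus Wild Type, IL6 KO minus Wild Type and sgp130Fc minus IL6 KO, for the members and 7 related lists, with black bars at the medians. Pdk4, in red, is the called gene at 2.56, and all 12 citric acid cycle genes lie left of 0 in the middle panel.

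Markers of cell types differed between the same arrays. All 11 measured of 13 adipocyte markers lay lower in IL6 KO than in Wild Type (median -1.05). Retn was called lower, as were 0.194% of all genes. For Fabp4 the difference of -0.14 lay at background, as its probe was detected on 0 IL6 KO and 0 Wild Type arrays. In sgp130Fc, 9 of 11 markers lay lower than in Wild Type (median -0.19). Their summed log2 level was 113.6 to 114.3 in sgp130Fc, 96.3 to 111.9 in IL6 KO and 116.1 to 118.0 in Wild Type, lowest on IL6 KO replicate 2. Plin1, which coats the fat droplet, lay at 9.29, 9.04 and 9.12 in sgp130Fc, at 8.65, 6.95 and 8.92 in IL6 KO, and at 9.55 and 9.65 in Wild Type. All 7 measured of 8 endothelial markers lay lower in IL6 KO than in Wild Type (median -0.75), with summed levels of 67.4 to 68.0 in sgp130Fc, 58.5 to 63.4 in IL6 KO and 66.7 to 68.5 in Wild Type. Between sgp130Fc and IL6 KO, 3 of the 7 were called higher (0.959% of all genes). Pecam1, which encodes CD31, lay at 10.05, 9.997 and 9.64 in sgp130Fc, at 9.30, 8.91 and 9.17 in IL6 KO, and at 9.72 and 9.77 in Wild Type. Kdr, another marker of this list, was detected on 0 arrays.

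Macrophage markers lay the other way. Of 14 measured of 16, 13 lay higher than in Wild Type in sgp130Fc (median 0.53) and 13 in IL6 KO (median 0.65). limma called 0 of them, where it called 0.0612% of all genes higher in sgp130Fc and 0.102% in IL6 KO. At an unadjusted p under 0.05, 6 were higher in sgp130Fc (4.53% of all genes) and 11 in IL6 KO (9.93%). Groups lay apart upwards for 11 in sgp130Fc (13.8% of all genes) and 13 in IL6 KO (18.9%). The summed level of these markers was 149.6 to 153.4 in sgp130Fc, 152.5 to 159.8 in IL6 KO and 143.0 to 144.7 in Wild Type. Adgre1, which encodes F4/80, lay at 11.83, 11.77 and 12.29 in sgp130Fc, at 12.14, 12.34 and 12.01 in IL6 KO, and at 11.23 and 11.27 in Wild Type. Csf1r and Cd68 had no annotated probe.

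Skeletal muscle burns fat with Cpt1b, and 5 of 12 muscle markers were measured. Their summed level was 39.7 to 40.9 in sgp130Fc, 32.4 to 38.6 in IL6 KO and 37.9 to 38.9 in Wild Type. Acta1, skeletal actin, was detected on all 8 arrays and lowest on IL6 KO replicate 2 at 6.43. Ckm, Myh1, Myh4, Tnnt3 and Mylpf were each detected on 0 arrays. The 4 measured of 7 brown fat markers had a median of -0.40 in sgp130Fc and -1.23 in IL6 KO against Wild Type. Further lists with the same contrasts were red blood cell genes (-0.26 and -2.52, 3 genes), smooth muscle (-0.24 and -1.23, 3 genes), fibroblast (0.24 and 0.63, 6 genes), mesothelium (0.22 and 0.68, 6 genes), liver (-2.70 and 0.50, 3 genes) and T and B cells (-1.22 and -0.75, 4 genes). Of the red blood cell genes, 2 were called lower in IL6 KO than in Wild Type (0.194% of all genes). Between sgp130Fc and IL6 KO, 2 of them and 1 smooth muscle gene were called higher in sgp130Fc (0.959% of all genes). The part of these cell type markers in the differences of the oxidation genes was not tested.

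**Figure D5:**
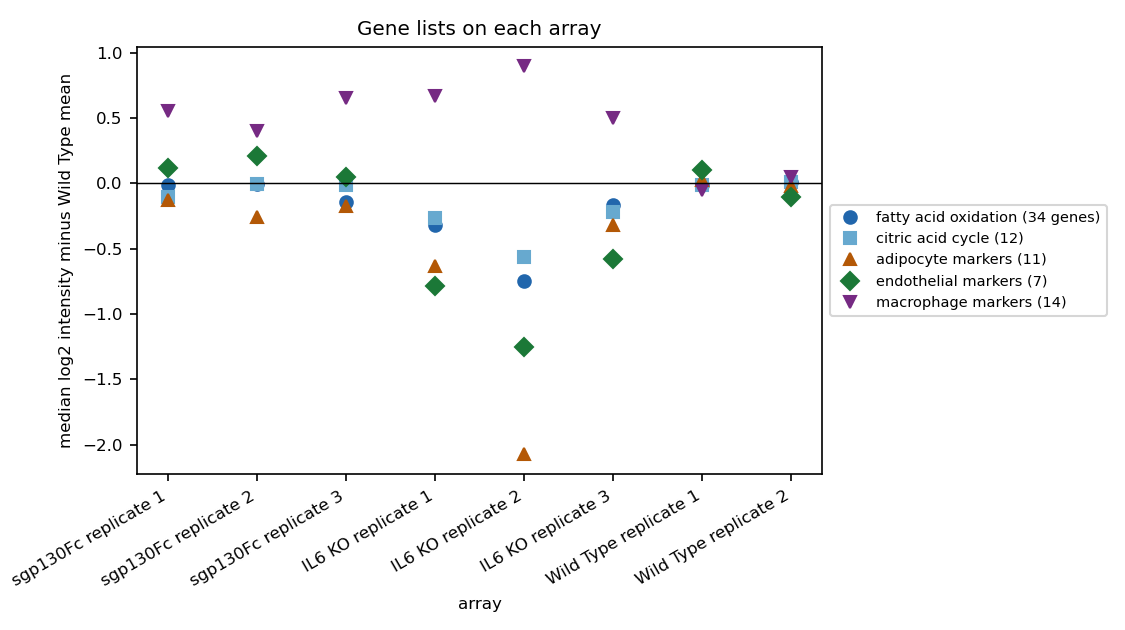
Median log2 intensity minus the Wild Type mean on each of the 8 arrays, for the 34 measured members, 12 citric acid cycle genes, 11 adipocyte, 7 endothelial and 14 macrophage markers. On IL6 KO replicate 2 the members stood at -0.75, the adipocyte markers at -2.07 and the macrophage markers at 0.90.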

How the data were processed

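The authors deposited probe intensities on a linear scale, without background subtraction or normalization between arrays, with a detection p-value beside each, per the file headers. They also deposited normalized log2 values, and the submitters' processing notes name GenomeStudio and limma without versions. The intensities were normalized anew with neqc of limma 3.58.1 (R 4.3.3, offset 16, background estimated from the detection p-values), which came within 0.0548 of the deposited log2 values.

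The test covered 14141 probes of 9803 genes, those detected (p under 0.05) on 2 or more arrays. In the array annotation 23978 probes had 1 symbol, 1719 had none and 0 had several. lmFit and eBayes of limma were fitted to all 8 arrays with group as the term, two-sided, with Benjamini-Hochberg adjustment over all tested probes (8.98 moderated degrees of freedom, 3.98 from the prior). Precision is limited by the number of arrays, with a median SE of a log2 difference of 0.21 against Wild Type and 0.19 between the other groups. The fit was tested on simulated data. Lists are described by counts and medians, with no test.

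The members, lists and rules were chosen with earlier results of these data known. Members given on every array are those called, the 5 of smallest p in each comparison, up to 10 whose groups do not overlap in the comparisons with Wild Type, and the brightest of each role. From each related list the rule takes genes called and the 2 of smallest p per comparison, of which some are given here. It also takes Il6 and the markers Adipoq, Plin1, Adgre1, Csf1r, Ucp1, Acta1, Ckm and Pecam1. Other members are given by their differences. Alternatives were the deposited values, no background correction, an offset of 50, 75th percentile scaling, detection on all arrays or no filter, array weights, an intensity trend, only the compared groups, the mean of all probes, the replicate number as a block, and leaving out each array.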

Additional observations from a re-analysis of the deposited data

How the results depend on the processing

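The direction of the members as a list held in every setting run for IL6 KO minus Wild Type and sgp130Fc minus IL6 KO: leaving out 1 array gave medians of -0.515 to -0.248 and of 0.174 to 0.5, and -0.113 to -0.0293 for sgp130Fc minus Wild Type. The numbers of members with a negative difference were 29 to 31, 3 to 5 and 18 to 22 in the same order. Called members without 1 array numbered 0 to 2 (IL6 KO minus Wild Type), 0 (sgp130Fc minus Wild Type) and 0 to 1 (sgp130Fc minus IL6 KO), the calls coming without IL6 KO replicate 3, where 5.66% of all probes were called for IL6 KO minus Wild Type and 3.59% for sgp130Fc minus IL6 KO. Members with groups apart were 21 to 27 lower and 2 to 4 higher in IL6 KO than Wild Type. They were 7 to 13 and 5 to 11 in sgp130Fc than Wild Type, and 1 to 2 and 15 to 25 in sgp130Fc than IL6 KO. At fixed values such counts can only grow with fewer arrays, but the remaining arrays were normalized anew each time. The difference of Acad10 between IL6 KO and Wild Type was -0.0892 without Wild Type replicate 2 and 0.708 without Wild Type replicate 1.

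Between sgp130Fc and IL6 KO, 1 of 34 members was called without background correction (Hadhb, with 1.29% of all probes) and 6 with array weights (Cpt1b, Crat, Acad10, Hadhb, Eci2 and Ehhadh, with 12% of all probes). There 2 of 32 members were negative with detection on all arrays, and 2 lay apart on the lower side with the mean of all probes. The cause was not tested. These counts of signs and of groups apart were added after seeing the data.

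Called probes moved more. For IL6 KO minus Wild Type (35) they were 18 without background correction, 9 without a filter, 13 with detection on all arrays, 64 with an intensity trend, 249 with array weights, 5 with only the compared groups, and 5 to 787 without 1 array (787 without IL6 KO replicate 3). For sgp130Fc minus Wild Type (13) they were 8, 6, 5, 20 and 26 in the first 5 of those settings, 22 with an offset of 50, and 3 to 22 without 1 array. For sgp130Fc minus IL6 KO (179) they were 107 without a filter, 1692 with array weights, and 24 to 499 without 1 array.

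Whether the replicate numbers pair the samples was not settled. Deviations of same-numbered arrays correlated between -0.353 and 0.18 (7 pairs), and those of differently numbered arrays between -0.361 and 0.361 (14 pairs). The deviations of the Wild Type arrays mirror each other, so these pairs are not independent and can neither show nor exclude pairing. With the replicate number as a block, called probes were 12 (IL6 KO minus Wild Type), 5 (sgp130Fc minus Wild Type) and 79 (sgp130Fc minus IL6 KO), and 0 members were called.

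Of 1248 recomputed differences of the members given on every array, 1221 kept their direction and side of the threshold. Another 16 changed sign from a difference no larger than its SE, 10 came to pass the threshold and 1 reversed. With 2 Wild Type arrays and a median 95% interval of 0.57 to either side for a member against Wild Type, changes under about 1.5-fold are hardly resolved. That interval is not adjusted for the number of probes, and larger changes also missed the adjusted threshold. Acot1 was 2.43-fold higher in IL6 KO than in Wild Type and was not called (limma, adjusted p = 0.0892).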
